A study of Homo sapiens with 4 samples.

Results

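The genes described here are 40 members of 2 germline programmes, meiosis and the piRNA pathway, in 4 human germ cell tumour cell lines. They were taken as a named list, and each was represented by the probe set annotated to it alone with the highest mean log2 value over the 4 arrays. Of the 40 genes, 39 had such a probe set, among 19775 genes on the array. MSH5 had none, so its level was not analysed and only its promoter is described. Each line was hybridised once to a single-colour array. TCam-2 was labelled as a seminoma line, NT2D1 as a teratoma line from a lung metastasis of a testicular tumour, GCT27 as an embryonal carcinoma line and GCT44 as a yolk sac tumour line. All 4 were cultured with 10% fetal bovine serum and antibiotics, TCam-2 in RPMI and the non-seminoma lines in DMEM. The effect of the medium therefore cannot be told apart from that of subtype wherever TCam-2 is compared. No treatment or genetic change was named. Each subtype is represented by 1 line, and NT2D1, despite its label, is known as a model of pluripotent embryonal carcinoma rather than of differentiated teratoma. The study asked which genes are silenced in the non-seminoma lines. Its DNA methylation arrays are not used here.

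Meiosis pairs and recombines homologous chromosomes. A proteinaceous axis with meiotic cohesins organises each chromosome, programmed breaks are repaired by a dedicated recombinase, and the synaptonemal complex joins the homologs. The piRNA pathway loads small RNAs into PIWI proteins, which silence transposons in germ cells. In the fetal male germ line one branch acts in the nucleus and directs DNA methylation of transposon promoters, and many other components sit in nuage, granules near mitochondria that are organised by Tudor domain proteins. Promoters of many genes in both programmes are rich in CpG dinucleotides and are silenced in somatic cells, and some are switched on again in tumours as cancer-testis genes.

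The line labels were checked against markers first. SOX17 and PRAME were highest in TCam-2, at 3819 and 9713 intensity units, against at most 44.2 and 79.5 elsewhere. KIT, a receptor of the seminoma and germ cell list, went against that label, with 1144 units for TCam-2, the lowest, and 1771 for GCT44, the highest. SOX2 reached 20575 in NT2D1 and 18309 in GCT27, against 391 in TCam-2 and 6.41 in GCT44. Of the same embryonal carcinoma list, DNMT3B was also higher in NT2D1 (11360) and GCT27 (23760) than in TCam-2 (2841) and GCT44 (2377). NANOG did not set these lines apart from the seminoma line, with 22390 units for TCam-2, 13322 for NT2D1, 22428 for GCT27 and 2.29 for GCT44. APOA2 reached 30689 in GCT44 against at most 89.2, although AFP, a yolk sac plasma protein, had only 372 there. Array medians ran from 73.6 to 79.3 units. The GCT44 array stood apart in its ACTB 3'/5' signal ratio, 4.21 against 2.49 to 2.97, but not in that of GAPDH. On the log2 scale the mean of its 18 hybridization control probe sets deviated by 0.29 from the mean over the 4 arrays, and that of GCT27 by -0.26. Values under 76.4 units, the median of all values, were set to that floor, since an order among dim probe sets is not reliable. A fold against the floor is written "at least". A line was called higher or lower for a gene if its value exceeded, or fell short of, that of every other line by 4-fold or more. Such calls describe size only. There was 1 array for each line, so no difference here has a replicate check.

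Meiosis and piRNA genes were dimmer than genes at large, and few were above the floor in every line. Of 39 members, 22 (56.4%) reached the floor in at least 1 line, against 75.5% of all genes. Only 4 (10.3%) reached it in all 4 lines, against 50.0% of all genes. That count was 1 where each gene took the median of its probe sets (against 40.3% of all genes) and 2 without _s_at and _x_at probe sets (against 42.7%). In each line fewer members than genes at large reached the floor. There were 12 in TCam-2 (30.8% against 62.3%), 13 in NT2D1 (33.3% against 63.3%), 13 in GCT27 (33.3% against 64.6%) and 7 in GCT44 (17.9% against 60.8%). The floor is near the middle of the values by construction and is not a detection limit. MEI1, at 75.5 units in GCT27, lay just below it, and 7 of the 22 genes that reached it peaked less than 2-fold above it. In RNA of a whole culture, fewer expressing cells and less RNA per cell cannot be told apart.

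**Figure D1:**
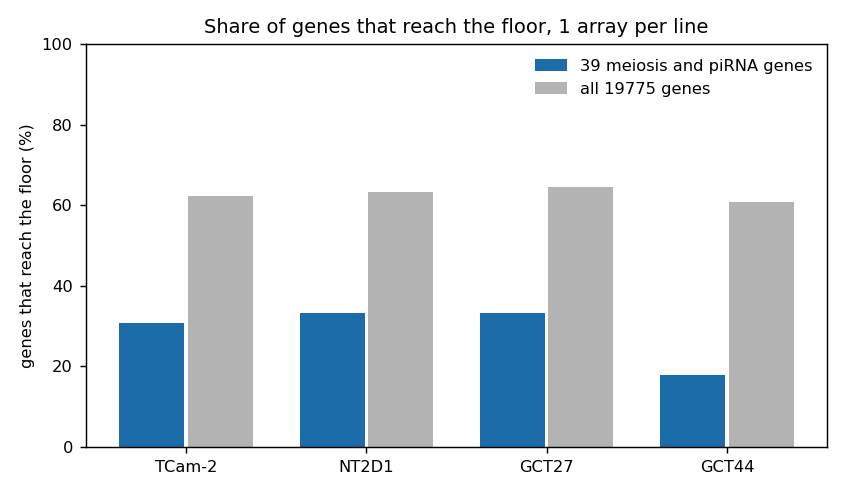
Percentage of genes whose intensity reaches the floor of 76.4 units in each cell line, for 39 meiosis and piRNA genes (blue) and all 19775 genes (grey), 1 array per line and no error bars for that reason. The member bars lie between 17.9% and 33.3% and the bars of all genes between 60.8% and 64.6%, with GCT44 lowest in both.

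Against that low level, 6 of the 22 members compared were called in a line (27.3%, against 7.1% of 14926 compared genes). TCam-2 was higher for 3 of the 22 compared members, DDX43, TDRD9 and SYCP2 (13.6%, against 1.49% of all). NT2D1 was higher for PIWIL2 alone (1 of 22, against 0.523% of all), and GCT27 for HORMAD1 alone (1 of 22, against 0.603%). GCT44 was higher for none (against 1.7%) and lower for none (against 1.69%). HENMT1 was the only member lower in a line, in GCT27 (1 of 22, against 0.322% of all genes lower there). Neither TCam-2 (background 0.744%) nor NT2D1 (0.241%) had a lower member. A lower call needs every other line to be at least 4-fold above the floor. No member met that for GCT44 or TCam-2, so their lack of lower calls followed from dim values in other lines. Because genes enter only if 1 line reaches the floor, the counts were also taken without that filter. Then 6 of 39 members (15.4%) were called in some line against 5.36% of all genes, and 11 of 39 (28.2%) spanned at least 4-fold over the lines against 15.5%. Each gene called higher was above the floor only in the line where it was called. The members were chosen with earlier results of these data known, and HORMAD1, PIWIL2 and DDX43 were given as markers with the list. The shares of members are therefore not independent of that choice, with or without the filter. The log2 difference between a line and the mean of the others was also taken over all 39 members, with values under the floor set to it. Its median was 0.00 in each line, as it was over all 19775 genes. Members under the floor in every line have a difference of exactly 0, so that median cannot show whether the other members shifted. The mean difference was highest for TCam-2, at 0.352 (all genes -0.003), and lowest for GCT44, at -0.399 (all genes -0.035). For GCT27 it was -0.058 (all genes 0.033) and for NT2D1 0.104 (all genes 0.005). These means were not tested.

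**Figure D2:**
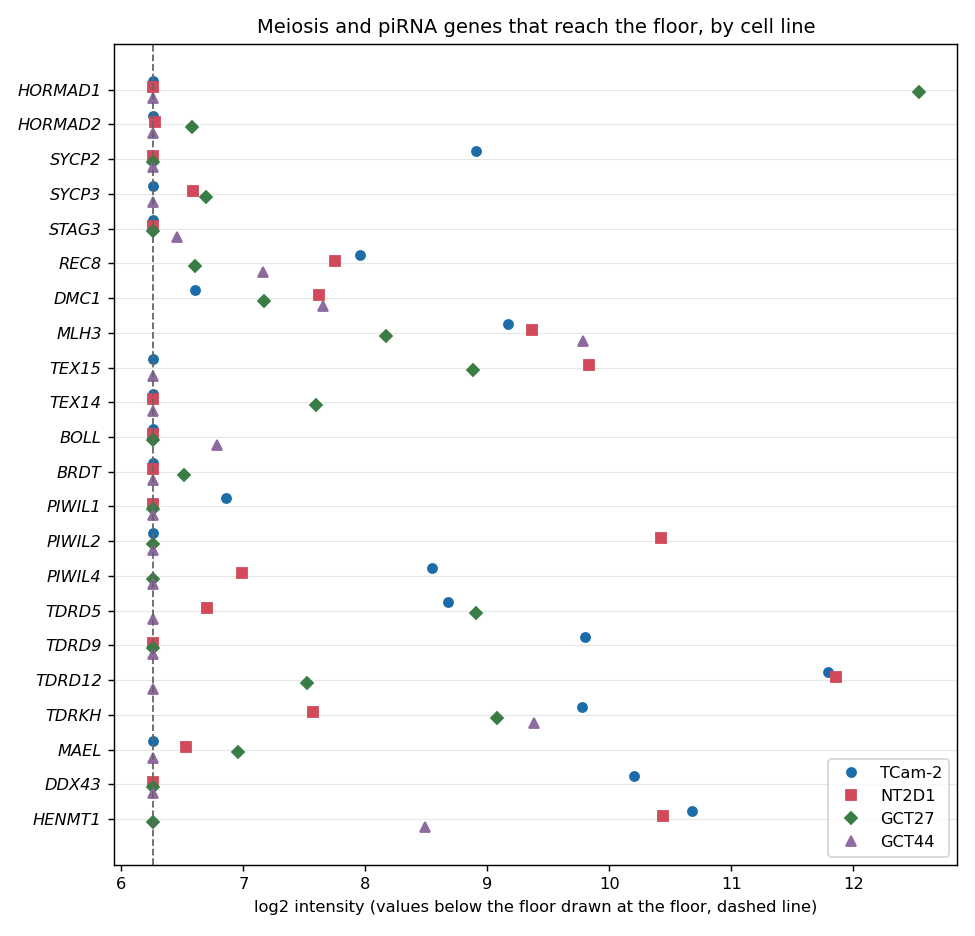
Log2 intensity of the 22 meiosis and piRNA genes that reach the floor in at least 1 line, 1 point per cell line (1 array each), with values below the floor drawn at the floor (dashed line). HORMAD1 stands out in GCT27, PIWIL2 in NT2D1, and DDX43, TDRD9 and SYCP2 in TCam-2, while REC8, DMC1, MLH3 and TDRKH lie right of the floor in all 4 lines.

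Among the 8 genes of the chromosome axis and synaptonemal complex, 2 were called, each in its own line. HORMAD1, a HORMA domain protein of unsynapsed axes that promotes break formation and is re-expressed in some cancers, gave 57.1 units for TCam-2, 44.5 for NT2D1, 5949 for GCT27 and 69.8 for GCT44. Only GCT27 was above the floor. It was at least 77.8-fold higher there, the widest margin of all 90 genes higher in GCT27, and the gene has 1 probe set. Its paralog HORMAD2 had 19.9, 77.4, 95.5 and 60.7 units in the same order and so rose no more than 1.25-fold above the floor in any line. SYCP2, a lateral element protein that binds SYCP3, gave 480 units for TCam-2, 4.42 for NT2D1, 14.6 for GCT27 and 3.13 for GCT44. It was at least 6.27-fold higher in TCam-2. A second SYCP2 probe set was below the floor in all 4 lines, with 25.7 in TCam-2 as its highest value, and with the median over both the margin was 0.54 on the log2 scale and the call was lost. SYCP3, the partner of SYCP2 in the lateral element, gave 45.3 units for TCam-2, 95.8 for NT2D1, 103 for GCT27 and 53.4 for GCT44, so SYCP2 stood above the floor in the seminoma line without it. The transverse filament gene SYCP1 peaked at 63.2 units, and the central element genes SYCE1, SYCE2 and TEX12 at 21.9, 65.1 and 37.2, all below the floor.

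No gene of meiotic cohesin or recombination was called in a line. Only 2 cohesin and 3 recombination genes were compared, and 7.1% of all compared genes were called, so a lack of calls is near that background. The kleisin REC8 was above the floor throughout, with 248 units for TCam-2, 216 for NT2D1, 97.3 for GCT27 and 143 for GCT44, a 2.54-fold range. A second REC8 probe set stayed at or below 7.86 units. STAG3 reached 87.7 in GCT44 only, while RAD21L1 peaked at 23.3 and SMC1B at 38.4, below the floor. Their mitotic counterparts were above the floor in every line, RAD21 with 11564 to 15784 units and SMC1A with 9609 to 13601. DMC1, the meiotic recombinase, gave 97.3 units for TCam-2, 197 for NT2D1, 144 for GCT27 and 201 for GCT44. Its probe sets are of types that can match several transcripts, and the other one gave 15.7, 207, 99.6 and 142, so TCam-2 was lowest on both. MLH3, which acts in meiotic crossover formation, gave 575 units for TCam-2, 659 for NT2D1, 287 for GCT27 and 880 for GCT44. GCT27 was lowest on all 3 MLH3 probe sets, with ranges of 3.07-fold to 3.23-fold, but all 3 are also of types that can match several transcripts.

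TEX15 was above the floor in NT2D1 and GCT27 alone. This gene, needed in mouse spermatocytes for recombination and in fetal germ cells for piRNA-directed methylation, gave 50.5 units for TCam-2, 910 for NT2D1, 473 for GCT27 and 43.4 for GCT44. NT2D1 and GCT27 were at least 6.19-fold above the other pair, although a second TEX15 probe set was below the floor in every line, with 68.2 in NT2D1 as its highest. SPO11, which makes the programmed breaks, peaked at 17.5 units, MSH4 at 27.0, MEI1 at 75.5 and the crossover gene TEX11 at 53.3, none at the floor. Of the other regulators, TEX14, a protein of the bridges between germ cells, had 193 units in GCT27 and at most 68.5 elsewhere, at least 2.53-fold higher. BOLL, an RNA-binding protein of the DAZ family, reached 110 in GCT44, and the testis bromodomain gene BRDT 91.3 in GCT27, both less than 2-fold above the floor.

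Of the 3 PIWI genes, PIWIL2 was highest in NT2D1, and PIWIL4 and PIWIL1 in TCam-2. PIWIL2, the cytoplasmic PIWI protein that amplifies piRNAs, gave 47.2 units for TCam-2, 1376 for NT2D1, 53.6 for GCT27 and 5.20 for GCT44. It was at least 18.0-fold higher in NT2D1, the sixth widest margin of the 78 genes higher there. Another PIWIL2 probe set gave 762 units in NT2D1 and at most 33.5 elsewhere, at least 9.97-fold, and the remaining one was at or below 6.46 in every line. PIWIL4, the nuclear PIWI protein linked to DNA methylation, gave 374 units for TCam-2, 127 for NT2D1, 43.6 for GCT27 and 40.4 for GCT44. TCam-2 was 2.95-fold above NT2D1, short of the rule, and at least 4.90-fold above GCT27 and GCT44. PIWIL1, the PIWI protein of meiotic spermatocytes, reached 116 units in TCam-2 and was below the floor in the other lines. In GCT44, at 73.9 units, it lay only just below the floor. GCT27 and GCT44 thus had no PIWI gene above the floor among the 3 measured.

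Of the Tudor domain genes, 4 of 7 reached the floor and spanned at least 4-fold over the lines, a span seen in 15.5% of all genes. TDRD9, a helicase that works with PIWIL4 in mouse germ cells, gave 889 units for TCam-2, 6.34 for NT2D1, 36.4 for GCT27 and 32.8 for GCT44, at least 11.6-fold higher in TCam-2. TDRD12, which binds PIWIL2 and takes part in secondary piRNA production, gave 3535 units for TCam-2, 3720 for NT2D1, 184 for GCT27 and 6.97 for GCT44. TCam-2 and NT2D1 were 1.05-fold apart, and both lay at least 19.2-fold above GCT27. TDRD12 was thus brightest in the pair of lines where a PIWI gene was above the floor, and GCT27 was above the floor for it too. TDRD5 gave 409 units for TCam-2, 104 for NT2D1, 480 for GCT27 and 3.42 for GCT44, with a highest to lowest ratio of at least 6.28. TDRKH, a mitochondrial scaffold for trimming of piRNA ends, gave 875 units for TCam-2, 190 for NT2D1, 542 for GCT27 and 667 for GCT44, a 4.59-fold range with NT2D1 lowest. NT2D1 was lowest on all 3 TDRKH probe sets, and the other 2 fell below the floor there. TDRD1, TDRD6 and STK31 peaked at 15.3, 69.1 and 63.0 units, below the floor.

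Of the 7 other genes of piRNA production and nuage, 3 reached the floor, against 75.5% of all genes. DDX43, a DEAD-box helicase known as a cancer-testis antigen, gave 1175 units for TCam-2, 3.77 for NT2D1, 23.2 for GCT27 and 3.21 for GCT44. The seminoma line was at least 15.4-fold higher, 33rd by margin among the 222 genes higher there. HENMT1, the methyltransferase that protects the 3' ends of piRNAs, gave 1638 units for TCam-2, 1391 for NT2D1, 47.6 for GCT27 and 359 for GCT44. GCT27 was at least 4.69-fold below the nearest line, and with arrays scaled to the hybridization controls the margin was 1.93 on the log2 scale, just short of the rule. MAEL, a nuage protein, gave 58.2 units for TCam-2, 92.4 for NT2D1, 124 for GCT27 and 4.73 for GCT44. DDX4 (vasa), the classical marker of germ cells past the primordial stage, peaked at 16.6 units. MOV10L1, the helicase that feeds precursors into the pathway, peaked at 34.6, and ASZ1 and the mitochondrial nuclease gene PLD6 at 44.1 and 58.8. None of these 4 reached the floor, so piRNA genes were above it in subsets, in no line as a full set.

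Pairs of lines were compared over all 39 members. These comparisons share arrays and are not independent of each other. TCam-2 was at least 4-fold above GCT44 for 7 members (17.9%, against 4.3% of all genes), namely SYCP2, PIWIL4, TDRD5, TDRD9, TDRD12, DDX43 and HENMT1. GCT44 was above TCam-2 for none (against 3.31%) and above NT2D1 for none (against 2.85%), and above GCT27 for HENMT1 alone (2.56% against 3.14%). TCam-2 was above GCT27 for 6 (15.4% against 2.71%) and above NT2D1 for 4 (10.3% against 3.18%), SYCP2, TDRD9, DDX43 and TDRKH. In the other direction NT2D1 was above TCam-2 for TEX15 and PIWIL2 (5.13% against 3.05%), and GCT27 was above TCam-2 for HORMAD1 and TEX15 (5.13% against 2.86%). NT2D1 lay above GCT27 for PIWIL2, TDRD12 and HENMT1 (7.69% against 1.58%), and GCT27 above NT2D1 for HORMAD1 and TDRD5 (5.13% against 1.95%). NT2D1 exceeded GCT44 for TEX15, PIWIL2 and TDRD12 (7.69% against 3.59%), and GCT27 exceeded GCT44 for HORMAD1, TEX15 and TDRD5 (7.69% against 4.0%).

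**Figure D3:**
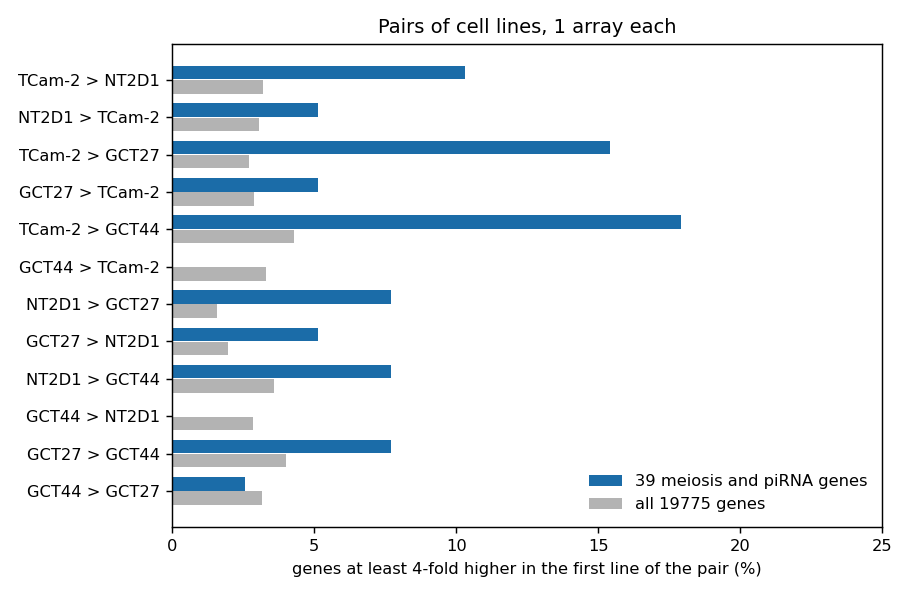
Percentage of genes at least 4-fold higher in the first line of each ordered pair, for 39 meiosis and piRNA genes (blue) and all 19775 genes (grey), with 1 array per line and floored values. The longest member bar is TCam-2 over GCT44 at 17.9%, and the bars of GCT44 over TCam-2 and over NT2D1 are at 0.

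The promoters of the members were set beside all promoters because the study concerns gene silencing with DNA methylation, which acts on CpG dinucleotides. RefSeq promoter windows of the GRCh38.p14 build, 250 bases before to 50 after the transcription start, matched 33 of the 40 genes by symbol. HORMAD1, PIWIL2, PIWIL4, TEX12, TEX14, TEX15 and PLD6 had no match, so 2 of the 5 members called higher in a line are not in the promoter results. Where a member had several, the window farthest 5′ was used. The background holds every window, 35116 for 27305 gene symbols, so it counts some genes more than once and includes genes not on the array. The windows held a median of 26 CpG dinucleotides, against 14 over all 35116 windows, and 26 of 33 (78.8%) held 20 or more against 41.2% of all windows. DDX4 had the fewest with 1, and MAEL the most with 60. The 3 genes called higher in TCam-2 differed in CpG content, with 21 in the window of DDX43 and 41 in those of both TDRD9 and SYCP2. Their 250 bases before the start are printed to show this, 5′ to 3′ on the strand of the gene, with each CpG in capitals. The stretches are chr6:73394578-73394827 on the plus strand, chr14:103928206-103928455 on the plus strand and chr20:59933638-59933887 on the minus strand.
DDX43: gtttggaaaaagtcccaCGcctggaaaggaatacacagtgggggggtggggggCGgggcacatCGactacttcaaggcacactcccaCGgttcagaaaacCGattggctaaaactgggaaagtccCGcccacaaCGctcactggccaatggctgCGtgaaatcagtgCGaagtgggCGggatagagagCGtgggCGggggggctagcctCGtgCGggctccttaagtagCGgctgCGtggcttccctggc
TDRD9: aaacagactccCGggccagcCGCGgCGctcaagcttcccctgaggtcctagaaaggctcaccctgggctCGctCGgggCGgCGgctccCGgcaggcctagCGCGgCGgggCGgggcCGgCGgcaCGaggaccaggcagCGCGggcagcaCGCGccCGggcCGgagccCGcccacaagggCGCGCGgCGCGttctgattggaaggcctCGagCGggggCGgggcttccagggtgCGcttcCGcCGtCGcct
SYCP2: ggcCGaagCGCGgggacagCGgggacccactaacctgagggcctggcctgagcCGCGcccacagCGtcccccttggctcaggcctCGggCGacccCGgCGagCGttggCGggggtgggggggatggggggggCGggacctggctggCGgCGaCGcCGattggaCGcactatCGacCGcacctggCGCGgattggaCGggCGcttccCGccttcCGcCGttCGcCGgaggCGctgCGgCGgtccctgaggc
These stretches hold 16, 35 and 33 CpG dinucleotides in that order. Members that reached the floor in at least 1 line and members below it in every line had the same median of 26 in their windows (17 and 15 genes), but 16 of 17 (94.1%) of the former and 9 of 15 (60.0%) of the latter held 20 or more. These shares were not tested.

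Letters that bind E2F factors were more frequent in these promoters than in promoters at large. E2F6 is a sequence-specific subunit of PRC1.6, a Polycomb complex known to repress germline genes in other cells. MGA with MAX is another DNA-binding part of that complex and recognises an E-box. GCGGGAA, searched on both strands, occurred in 11 of 33 member windows (33.3%) and in 6.55% of all windows. The motif itself contains a CpG. Among windows with 20 or more CpG it occurred in 9 of 26 members (34.6%) and in 12.0% of all windows. The E-box CACGTG occurred in 5 of 33 members (15.2%) and in 7.26% of all windows. The letters of the motifs can share 1 end base. By role, GCGGGAA lay in 9 of 17 windows (52.9%) of the axis, cohesin and recombination genes and in 2 of 16 (12.5%) of the others. By level, it lay in 7 of 15 windows (46.7%) of genes below the floor in every line and in 3 of 17 (17.6%) of genes that reached it. The splits by role and by level overlap, as all of those dim genes with the motif except ASZ1 were axis, cohesin or recombination genes. Both motifs were chosen after the values were seen. A match is a description of the letters, not evidence of binding, and these shares were not tested. The 7 members with a match wholly before the start are shown with up to 11 flanking bases, on the strand of the gene and with the motif or its reverse complement in capitals.
ASZ1: cacggcgctccTTCCCGCgcatctctacg
MSH5: aacggcagaggGCGGGAAgtttgaacgtt
REC8: gaagcgctcgcTTCCCGCggtgcgat
SMC1B: tggcgaatcccTTCCCGCgctttttccgc
SPO11: gctcagaaagcGCGGGAAaggcacgc
SYCE1: ctttccctctcTTCCCGCaggtttagccc
SYCP2: tggacgggcgcTTCCCGCcttccgccgtt
These lie at chr7:117427537-117427565 (-), chr6:31739800-31739828 (+), chr14:24172054-24172079 (+), chr22:45413608-45413636 (-), chr20:57329777-57329802 (+), chr10:133568475-133568503 (-) and chr20:59933668-59933696 (-), in the order printed, with the strand of the gene in parentheses. MEI1, SYCE2, SYCP1 and TDRD9 had their match across or after the start. Of the 7 genes shown, only SYCP2 and REC8 reached the floor in any line, while MSH5 was not measured.

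**Figure D4:**
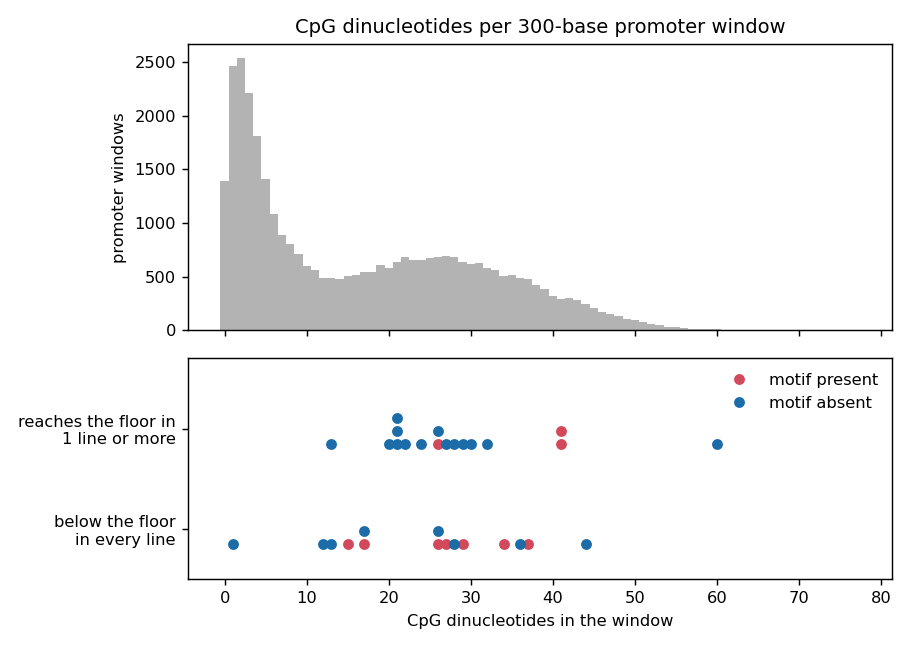
CpG dinucleotides per 300-base promoter window for all 35116 windows (top, count of windows) and for the 32 meiosis and piRNA genes with both a window and a probe set (bottom, 1 point per gene, stacked where counts coincide; red marks GCGGGAA on either strand). The bottom rows separate genes that reach the floor in at least 1 line from genes below it in every line; both rows have a median of 26 CpG, 16 of 17 above and 9 of 15 below have 20 or more, and red points are 3 of 17 above and 7 of 15 below.

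Further genes of both programmes were taken as lists. Of 34 other meiosis genes 26 had a probe set and 15 reached the floor (75.5% of all genes did), 8 of them in all 4 lines (50.0% of all genes). Of the 15, 1 was called, near the background of 7.1% of compared genes. HSPA2, a chaperone of the synaptonemal complex in spermatocytes, gave 2754 units for TCam-2, 328 for NT2D1, 147 for GCT27 and 4.81 for GCT44, 8.39-fold higher in TCam-2. The genes bright in every line included CCNB1IP1 (3461 to 6036 units), TRIP13 (1593 to 2926) and MND1 (904 to 1778), which also act outside meiosis or are expressed in dividing cells. PRDM9, which places the breaks, peaked at 31.9 units. Of 15 other piRNA genes 12 had a probe set, 9 reached the floor (75.5% of all genes did) and 4 did so in all lines (50.0% of all genes). None was called, where the background of 7.1% would give fewer than 1 among 9. PRMT5, which methylates PIWI proteins and many other targets, had 1710 to 2869 units. GTSF1, a cofactor of PIWI proteins, gave 26.4 units for TCam-2, 33.4 for NT2D1, 137 for GCT27 and 398 for GCT44, and RNF17, a Tudor protein, had 210, 8.62, 13.4 and 521 in that order. These 2 genes had the yolk sac tumour line as their highest, unlike the 7 Tudor and PIWI members that reached the floor. PRMT5 and MYBL1 of the same list were also highest there, by 1.23-fold and 1.07-fold. The other genes of that list that reached the floor were highest in other lines.

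Markers of other testicular cells were summed as well. Of the post-meiotic genes PRM1, PRM2, TNP1, ACRV1 and ODF1, 4 of 5 were below the floor in every line, and ODF1 had 91.1 to 114 units. Over all genes, 75.5% reached the floor in at least 1 line. The summed level of the 5 post-meiotic genes ran from 132 in TCam-2 to 227 in GCT44. The 3 Sertoli cell genes measured summed to 238 to 454 units, and the 4 Leydig cell genes to 263 to 567, with values under the floor included. Their part in the results was not tested.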

How the data were processed

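Total RNA of 4 cell lines, extracted with a column kit per the labels, was labelled with biotin and hybridised to 1 array per line. The authors deposited 1 intensity per array, on a linear scale, for each of 54675 probe sets. Per the submitters' processing notes the tool was RMA, without a version. RMA gives log2 values, so these are not its usual output. The mean after trimming 2% from each end was 500.1 on every array. Other upstream steps are not given in the sources used here. 41097 probe sets were listed with 1 gene symbol, 1801 with several and 11777 not at all. Here log2 was taken with the median of all values as floor, and genes whose highest value reached it were compared (14926 of 19775). No test was applied, as each line is 1 array, and their number limits the precision. All 40 members are accounted for by rule, and of the other meiosis, piRNA and PRC1.6 lists the called genes are named with examples. The members and lists were chosen with earlier results of these data known, and the 2 promoter motifs after the values were seen. Promoters are from RefSeq, GRCh38.p14. Python 3.11.15, pandas 2.3.3 and numpy 2.4.6 were used.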

Additional observations from a re-analysis of the deposited data

How the results depend on the processing

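Of the 6 calls, those of HORMAD1 (lowest log2 margin 6.23), PIWIL2 (3.32), TDRD9 (3.53) and DDX43 (3.94) held under 7 alternatives. Among these, the probe set with the highest linear mean was chosen after seeing the data. HORMAD1, TDRD9 and DDX43 have 1 probe set each, so alternatives that change the choice of probe sets could not alter their margins. Nor could a filter at the 70th percentile, 252 units, remove them, as each peaked above that. For these genes only rescaling the arrays, on the median, on quantiles or on the hybridization controls, could end a call. The other 4 alternatives (no filter, no floor, a 2-fold threshold, the mean of the other lines) cannot end a call of any gene. SYCP2 was lost in 1 and HENMT1 in 1 other, as described. Against the mean of the other lines, 6 members were higher in TCam-2 (3.24% of all genes), 3 in NT2D1 (2.07%), and 8 lower calls were made over 4 genes (8.1% of all genes were lower in a line). With a 2-fold threshold 2 were higher in GCT27 (3.16% of all genes) and 4 lower in a line (11.4%). Lower calls numbered 8 with no floor, where unordered low values enter (9.58% of all genes), and 0 when scaled to the hybridization controls (3.28%). That scaling shifted GCT27 by 0.26 and GCT44 by -0.29 on the log2 scale. Members above the floor in all 4 lines numbered 1 with the median over probe sets and 2 without _s_at and _x_at probe sets. The cause was not tested for these changes. No paired analysis was possible because each line has 1 array.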

Other observations

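Most PRC1.6 genes were above the floor in every line. Of 16 subunits and partners 15 had a probe set, and 14 of those were above the floor in all 4 lines, against 50.0% of all genes. E2F6 gave 3315 units for TCam-2, 2487 for NT2D1, 1632 for GCT27 and 2725 for GCT44, a 2.03-fold range. MGA had 553 to 1042 units, PCGF6 1206 to 1924 and L3MBTL2 499 to 620. YAF2, a paralog of the subunit RYBP, was the only one called, with 477 units for TCam-2, 344 for NT2D1, 67.9 for GCT27 and 877 for GCT44. It was at least 4.51-fold lower in GCT27 (background 0.322% of genes lower there). RYBP had 9385 units in GCT27, the highest of the 4 lines.

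Relatives of the members were also followed. AGO2, an Argonaute protein of somatic small RNA pathways, had 1785 units in TCam-2 and 485 to 765 elsewhere. MOV10, the somatic relative of MOV10L1, gave 792 units for TCam-2, 274 for NT2D1, 117 for GCT27 and 347 for GCT44, a 6.75-fold range with no call. DAZL, a relative of BOLL and an RNA-binding protein of germ cells, had 234 units in NT2D1 and at most 37.3 elsewhere, at least 3.06-fold higher, and its highest line was that of PIWIL2. MSH6, a mismatch repair relative of MSH4, had 11248 to 15568 units.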
